A study of Mus musculus with 8 samples.

Results

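The libraries described are the 4 labelled wild type of a study of mouse CD4 T cells from the spleen, out of 8 libraries in all. They were chosen by genotype label alone, with no measured value. All 8 came from primary cells that were put under pathogenic Th17 differentiation and harvested after 2 days. The other 4 carry the label Cyp1b1 knockout and served here only to check the labels. The labels state no strain, age, sex, culture cytokines or number of animals behind each library, so the spread between the 4 libraries may be technical.

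Levels are given as CPM, counts of a gene per 1000000 counts of its library, scaled by TMM, a method that sets libraries to a common effective size. Levels of different genes are compared only as CPM per kilobase of the deposited gene length. Where 4 values stand in a row, they are those of replicates 1 to 4 in that order, and means carry the standard deviation over n = 4 libraries. The libraries held 13937896, 8918342, 14110402 and 14335944 counts. A count of 3 corresponds to between 0.209 and 0.336 CPM in a single library and to 0.0585 CPM over all 4, and these floors cover counting error only.

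The targeted gene went against the genotype labels. Cyp1b1, a cytochrome P450 that oxidises xenobiotics, steroids and fatty acids, had 64, 34, 63 and 69 counts in the libraries labelled wild type. It had 2179, 3169, 3007 and 2069 counts in the libraries labelled knockout. The labels do not say which part of the gene was deleted, so reads from a part that was kept cannot be told apart from exchanged labels. The 4 libraries are therefore named by their label throughout, and no value below depends on a comparison between genotypes.

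Th17 cells are helper T cells that make IL-17A, IL-17F and IL-22, cytokines that act on epithelium and stroma and recruit neutrophils. Their programme is set up by factors such as STAT3, BATF and IRF4, which act downstream of cytokine and T cell receptor signals. IL-1β and IL-23 push such cells toward the forms that drive autoimmune disease, termed pathogenic. Recently activated T cells also grow and divide fast, with high demand for glycolysis, sterol synthesis and translation.

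The promoters of the cytokine genes at the extremes of the range are shown first, since Il17f, Il17a and Il22 were among the most abundant cytokine transcripts and Ccl20 had no count. Each is the RefSeq sequence of build GRCm38.p6 from 250 bases before to 50 bases after the RefSeq start of the gene, written 5′ to 3′ on the gene's own strand. Il17f lies at chr1:20784221-20784520 (minus strand), Il17a at chr1:20730655-20730954, Il22 at chr10:118204714-118205013 and Ccl20 at chr1:83116516-83116815 (plus strand). The RefSeq start is that of the deposited annotation for Il17a and Ccl20, lies 22 bases from it for Il22 and 6347 bases from it for Il17f, whose deposited gene begins further upstream, and distances below are counted from the RefSeq start. Capitals mark matches, on either strand, to AGGTCA, a half-site of nuclear receptors (TGACCT when read on the other strand), and to TATAAA, the TATA box letters.
Il17f: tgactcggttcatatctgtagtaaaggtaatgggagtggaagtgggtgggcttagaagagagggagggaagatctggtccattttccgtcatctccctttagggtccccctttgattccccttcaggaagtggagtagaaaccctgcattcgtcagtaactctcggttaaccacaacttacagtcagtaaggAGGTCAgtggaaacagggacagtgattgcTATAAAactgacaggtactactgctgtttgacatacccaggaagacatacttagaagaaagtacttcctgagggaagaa
Il17a: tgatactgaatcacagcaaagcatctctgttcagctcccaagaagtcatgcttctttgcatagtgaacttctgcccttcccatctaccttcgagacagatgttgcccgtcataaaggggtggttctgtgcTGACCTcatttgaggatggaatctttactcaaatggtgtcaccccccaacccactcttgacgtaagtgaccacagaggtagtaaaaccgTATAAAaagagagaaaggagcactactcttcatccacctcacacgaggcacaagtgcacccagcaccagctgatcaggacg
Il22: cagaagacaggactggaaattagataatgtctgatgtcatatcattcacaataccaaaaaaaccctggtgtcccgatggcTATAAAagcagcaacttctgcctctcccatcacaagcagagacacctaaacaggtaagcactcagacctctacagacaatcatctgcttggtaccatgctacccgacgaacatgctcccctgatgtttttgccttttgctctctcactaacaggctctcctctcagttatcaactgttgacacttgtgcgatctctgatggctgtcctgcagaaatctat
Ccl20: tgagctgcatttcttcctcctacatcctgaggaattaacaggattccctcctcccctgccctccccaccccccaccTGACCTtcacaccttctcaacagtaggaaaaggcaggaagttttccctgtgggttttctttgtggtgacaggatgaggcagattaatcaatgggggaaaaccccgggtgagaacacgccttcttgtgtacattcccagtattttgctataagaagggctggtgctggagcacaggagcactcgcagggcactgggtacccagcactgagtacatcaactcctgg

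The Il17f window held AGGTCA with its first base 58 bases before the start and TATAAA 29 bases before it. The Il17a window held TGACCT 120 bases before the start and TATAAA 31 bases before it. In the Il22 window the single match was TATAAA, 170 bases before the start. The Ccl20 window held TGACCT 174 bases before the start, so the half-site letters occurred both beside highly expressed genes and beside a gene with no count. TGAGTCA, an AP-1 site, and TTCNNNGAA, a STAT site, were searched on both strands as well and matched none of these 4 windows. AGGTCA was present in 16.3% of all 32851 promoters in the table, TGAGTCA in 5.20%, TTCNNNGAA in 8.30% and TATAAA in 13.6%. A match is a description of letters and not a site.

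Of 54532 annotated genes, 22046 were protein-coding, and these held about 97% of the counts in every library. There were 11142 protein-coding genes at 1 CPM or more in all 4 libraries, or 50.5%. A further 5137 (23.3%) had no count in any library, and 5767 lay between. The shares of 50.5% and 23.3% are the background for the counts of detected genes and of genes with no count in the lists below. Among the detected genes the median level was 8.23 CPM per kilobase, with quartiles at 3.20 and 19.0. The distribution was broad at the top: 73 genes had a mean of 1000 CPM or more, 2376 of 100 or more and 8945 of 10 or more. The 10 most abundant genes held 5.50% of protein-coding counts, the 100 most abundant 17.9%, and 954 genes held 50% of them.

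Transcripts of the translation apparatus were the most frequent class at the head of the ranking per kilobase. mt-Co1, the mitochondrially encoded subunit 1 of cytochrome c oxidase, was first at 5531, 8213, 7760 and 8105 CPM per kilobase. Replicate 1 was the lowest for it. Eef1a1, the elongation factor that carries aminoacyl-tRNA to the ribosome, was second at 5331 ± 252 CPM per kilobase. mt-Co1 was above Eef1a1 in 3 of 4 libraries, and their ranges overlapped. With the longest annotated transcript as the length, Eef1a1 stood at 7409 and mt-Co1 at 7402 CPM per kilobase, so the order turned round. The ribosomal stalk protein gene Rplp1 followed at 2476 ± 138, then Eef2, the translocation factor, at 2018 ± 53.7, and Rplp0 at 1889 ± 34.7 CPM per kilobase, with Rplp0 above Eef2 by the longest transcript lengths. Cytosolic ribosomal protein genes made up 13 of the 25 highest genes and 50 of the highest 100, and mitochondrially encoded genes made up 3 of the 25. The rest included the thymosins Tmsb4x (1462 ± 123) and Tmsb10 (1159 ± 61.3), which bind actin monomers, Actb (1243 ± 69.7), the MHC class I light chain B2m (1403 ± 105), and Tpt1 (1375 ± 64.3 CPM per kilobase). Ecm1, a secreted matrix protein, ranked 23 at 885 ± 72.0 CPM per kilobase.

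**Figure D1:**
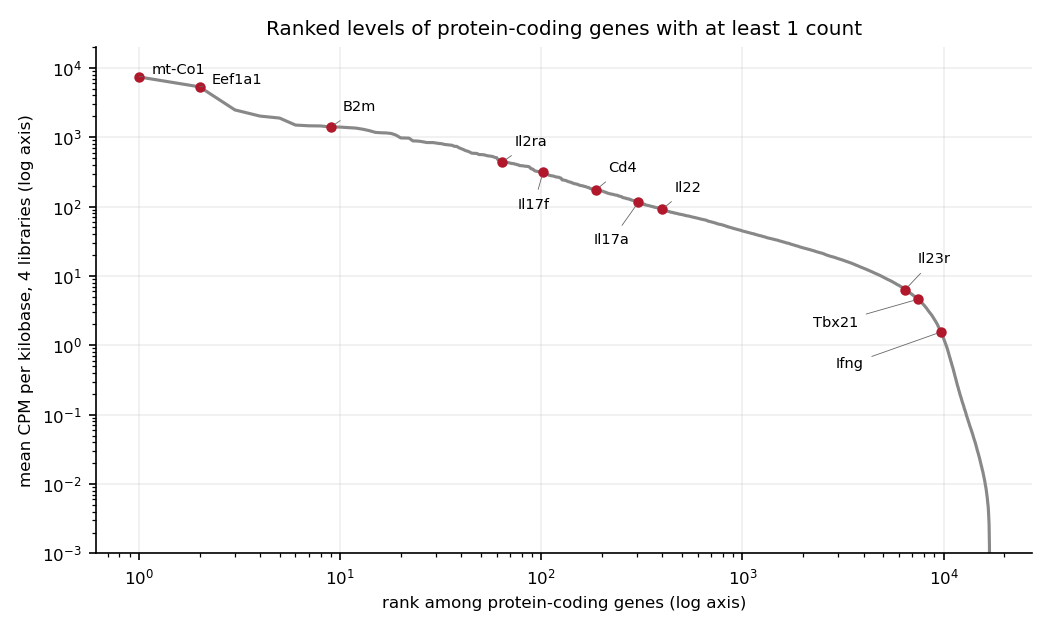
Mean CPM per kilobase over the 4 libraries labelled wild type (log axis) against rank among protein-coding genes (log axis), for genes with at least 1 count; red points are named genes. Il2ra (rank 64) and Il17f (rank 102) stand among the most abundant genes, and Tbx21 is at rank 7444.

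The 5 markers of the cells were detected in all 4 libraries. Il2ra, the α chain of the IL-2 receptor that marks activated and regulatory T cells (chr2:11642807-11693193, build GRCm38), was at 410, 431, 460 and 456 CPM per kilobase. At 2508 ± 135 CPM it ranked 64 of all protein-coding genes per kilobase. Il17f (chr1:20777146-20790617) was at 346, 271, 379 and 251 CPM per kilobase and ranked 102. Its level was highest in replicate 3 and lowest in replicate 4, a spread of 19.5% as a coefficient of variation. The coreceptor gene Cd4 (chr6:124864692-124888221) was at 161, 182, 171 and 183 CPM per kilobase, a spread of 5.88%. Il17a (chr1:20730905-20734496) was at 122, 102, 154 and 85.2 CPM per kilobase and ranked 304. Il22 (chr10:118204942-118210047) was at 98.5, 73.9, 110 and 81.4 CPM per kilobase and ranked 399. Il2ra was above Il17f, Il17f above Cd4 and Cd4 above Il17a in 4 of 4 libraries with no overlap of the ranges. Il17a was above Il22 in 4 of 4 libraries, but their ranges overlapped.

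Per kilobase, Il17f transcripts were 2.72 ± 0.207 times as abundant as Il17a transcripts, with ratios of 2.83, 2.67, 2.46 and 2.94. The ratio depends on the length used: with the longest annotated transcript of each gene it was 4.68. Il17f was 3.42 ± 0.250 times as abundant as Il22, or 5.88 times with the longest transcripts. Of 244 genes examined singly that had a count, 51 moved by more than 1.5-fold with that length, the largest being Satb1 at 3.05-fold, so levels of different genes carry this limit besides the spread between libraries.

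Cytokine transcripts spanned from the Il17f level to none. Of the 10 Th17 cytokine genes in the table, 5 were at 1 CPM or more in all 4 libraries, namely Il17f, Il17a, Il24, Il22 and Il21. Il24, an IL-10 family cytokine that acts on epithelium, was at 112, 82.5, 121 and 69.4 CPM per kilobase. Il21, which acts on B cells and on T cells themselves, was at 33.3, 29.6, 38.4 and 26.9 CPM per kilobase. Both were highest in replicate 3 and lowest in replicate 4, as were Il17f and Il17a. Csf2, which encodes GM-CSF, the cytokine linked to encephalitogenic Th17 cells, was near the detection limit at 1.37, 0.895, 1.20 and 0.558 CPM. Ccl20, the ligand of CCR6, had 0 of 51302584 counts, which allows a level of up to 0.0585 CPM.

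Outside that list, Lif, a cytokine of the IL-6 family, was at 77.0, 56.6, 83.4 and 49.8 CPM per kilobase, and Osm, of the same family, at 45.0, 45.3, 43.2 and 50.2. The order of the libraries for Lif was that of Il17a, while Osm was highest in replicate 4. Il10, the anti-inflammatory cytokine, was at 11.8, 9.99, 12.6 and 11.5 CPM per kilobase. Signature cytokines of other helper fates were low: Ifng (Th1) at 1.73, 1.68, 3.33 and 1.33 CPM, and Il4 (Th2) at 3.02, 4.36, 2.69 and 4.40 CPM. Il2, the growth factor of activated T cells, was at 2.45, 2.24, 2.83 and 0.907 CPM. Per kilobase, Il2 stood at 1.84 ± 0.731 and its receptor chain Il2ra at 439 ± 23.6 CPM. Il5 had counts in replicate 4 alone (0.349 CPM), and Il9 and Il13 had means of 0.241 and 1.39 CPM. Of the 12 genes of this list, 5 were at 1 CPM or more in all 4 libraries.

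Ligands of the TNF and TGF-β families were mostly detected. Ltb, the membrane partner of lymphotoxin, was at 189 ± 11.7 and Lta at 101 ± 7.73 CPM per kilobase. Tnfsf8, the CD30 ligand, was at 54.5 ± 5.21 and Tgfb1 at 44.5 ± 1.48 CPM per kilobase, an order that turned round with the longest transcript lengths. Tnf was at 27.0 ± 1.14 and Cd40lg, which licenses B cells and dendritic cells, at 26.3 ± 0.912 CPM per kilobase. Tgfb3, the isoform linked to pathogenic Th17 cells, was at 4.85, 2.88, 4.73 and 3.36 CPM per kilobase. In this list 14 of 16 genes were at 1 CPM or more in all 4 libraries. Of the 17 chemokine genes only 4 were, led by Ccl22, a ligand of CCR4, at 15.7, 15.2, 16.5 and 18.4 CPM per kilobase, and Ccl1 and Cxcl13 had no count.

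**Figure D2:**
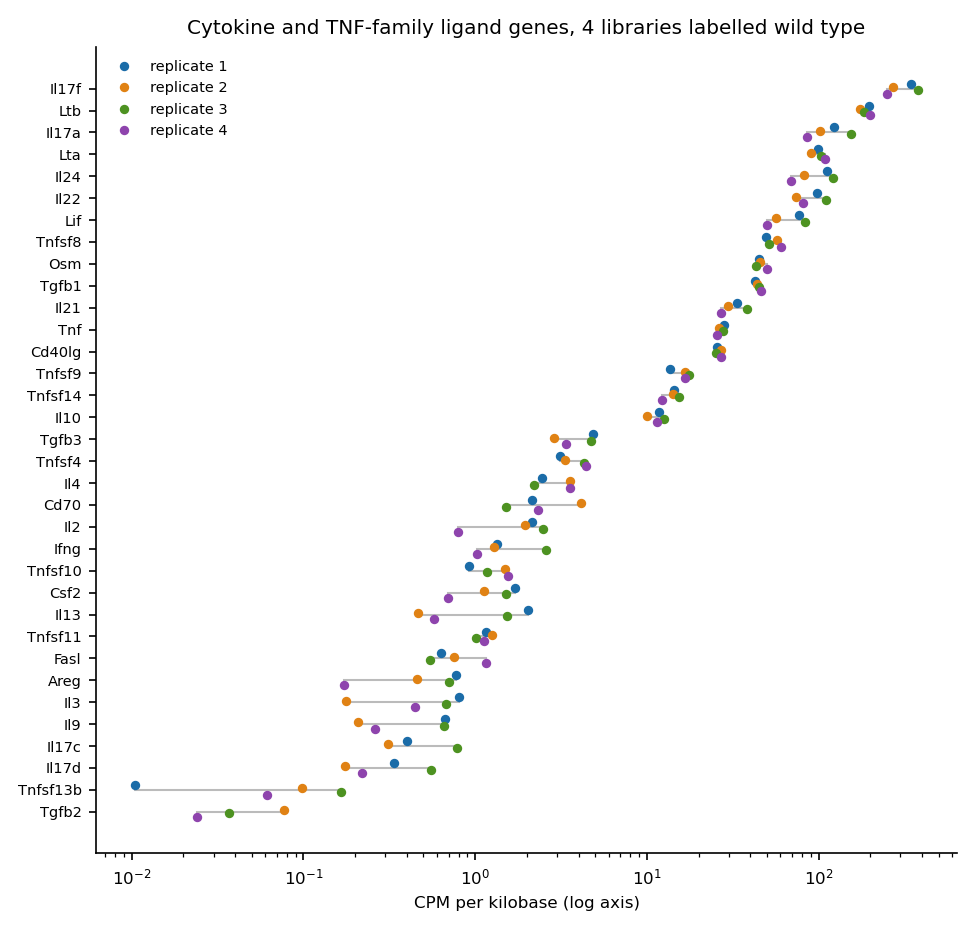
CPM per kilobase (log axis) of cytokine, TGF-β and TNF-family ligand genes whose mean was 0.1 CPM or more, by replicate; grey lines join the lowest and highest library and a library with no count is not drawn. The Il17f points lie between 251 and 379, while Csf2, Ifng and Il2 lie below 3 CPM per kilobase in every library.

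All 16 transcription factors listed for Th17 cells were at 1 CPM or more in all 4 libraries. Junb, an AP-1 subunit, was highest at 249, 222, 250 and 209 CPM per kilobase. Hif1a, the oxygen-regulated factor that drives glycolytic genes, was at 194 ± 9.86 and Irf4, induced by T cell receptor signals, at 188 ± 19.9 CPM per kilobase. The AP-1 partner Batf was at 65.6 ± 2.97 and Stat3, activated by IL-6, IL-21 and IL-23, at 42.8 ± 2.13 CPM per kilobase. Rora, an orphan nuclear receptor gene, was at 5.78 ± 0.439 and Ahr, the aryl hydrocarbon receptor, at 4.16 ± 0.467 CPM per kilobase, the lowest mean of the 16. Runx1, next above Ahr with a mean of 4.86, was higher than Ahr in 2 of 4 libraries, and their ranges overlapped. Among the 15 neighbours in this order, 9 pairs had ranges that did not overlap, and 2 of those pairs, Irf4 over Ets1 and Ikzf1 over Bhlhe40, turned round with the longest transcript lengths.

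Foxp3, Gata3 and Tbx21, which define other helper lineages, were detected at low levels, near those of Rora and Ahr of the Th17 list. Foxp3, the factor of regulatory T cells, was at 5.41, 6.67, 5.50 and 7.03 CPM per kilobase. Gata3 (Th2) was at 4.50, 4.92, 5.11 and 5.46, and Tbx21 (Th1) at 4.89, 4.09, 4.38 and 5.08 CPM per kilobase. Eomes, a T-box factor of cytotoxic cells, was at 1.01, 0.783, 1.20 and 1.26 CPM. Among shared factors, Runx3 was at 42.2 ± 1.75, Stat5b at 71.6 ± 3.05 and Satb1, a chromatin organiser, at 93.6 ± 2.05 CPM per kilobase.

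Over all transcription factors in the deposited annotation, 794 of 1451 (54.7%) were at 1 CPM or more in all 4 libraries, and the highest per kilobase was Tcf7, which encodes TCF1, a factor of naive and memory T cells. Tcf7 was at 271, 345, 320 and 375 CPM per kilobase, lowest in replicate 1 and highest in replicate 4. Families differed widely. All 9 interferon regulatory factors, 10 E2F family members and 7 STATs were detected, and so were 37 of 48 bZIP genes, but only 23 of 229 homeobox genes and 3 of 17 T-box genes. Of the follicular and naive T cell factors, Lef1 was at 22.6 ± 2.49 and Bcl6 at 2.23 ± 0.383 CPM per kilobase.

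**Figure D3:**
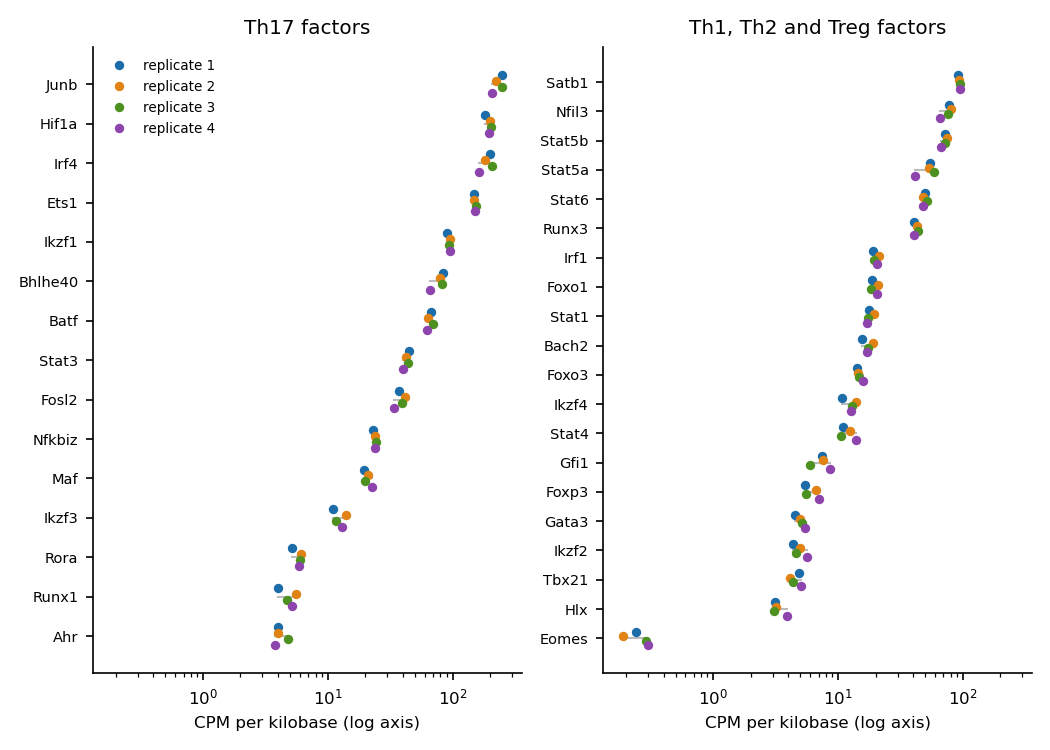
CPM per kilobase (log axis) of transcription factor genes by replicate: left, 15 genes of the Th17 list, right, the Th1, Th2 and Treg lists; grey lines join the lowest and highest library. Junb lies between 209 and 250, while Foxp3, Gata3 and Tbx21 lie between 4.09 and 7.03. Both panels span a wide range: on the left Rora and Ahr have means of 5.78 and 4.16, on the right Satb1 and Nfil3 of 93.6 and 74.7.

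Of 28 cytokine receptor genes 26 were at 1 CPM or more in all 4 libraries, and so were 8 of 8 genes of the common γ chain receptors, the receptors for IL-2 and its relatives. In that group Il2rb was at 175 ± 2.98, Il4ra at 141 ± 5.33, Il21r at 123 ± 6.71 and the shared chain Il2rg at 119 ± 2.25 CPM per kilobase. The order of Il4ra over Il21r turned round with the longest transcript lengths. Il12rb2, the signalling chain of the IL-12 receptor and a hallmark of Th1 cells, was the highest of the 28 at 62.6, 70.2, 66.3 and 58.6 CPM per kilobase. Il23r, the receptor chain that sustains Th17 cells, was at 4.83, 6.34, 6.35 and 7.99 CPM per kilobase. Il12rb2 was above Il23r by 13.0, 11.1, 10.5 and 7.33 times in the 4 libraries. Their common partner Il12rb1 was at 33.2 ± 1.85 CPM per kilobase.

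Among the IL-1 receptors, the decoy receptor gene Il1r2 was at 59.2, 62.6, 61.6 and 54.2 CPM per kilobase and the signalling receptor gene Il1r1 at 3.82, 3.87, 3.83 and 3.41. Il1r2 was 15.9 ± 0.310 times as abundant as Il1r1 and above it in every library. The IL-6 receptor chain Il6ra was at 25.4 ± 0.762 and its signalling partner Il6st at 6.24 ± 0.758 CPM per kilobase. For TGF-β, Tgfbr2 was at 15.2 ± 1.43 and Tgfbr1 at 3.95 ± 0.186 CPM per kilobase. Il22ra1, the receptor chain through which epithelium senses IL-22, had no count. Socs3, the feedback inhibitor of IL-6 signalling, was the highest SOCS gene at 166, 149, 160 and 149 CPM per kilobase, followed by Cish at 67.9 ± 0.687 and Socs1 at 49.7 ± 1.74.

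Of the chemokine receptors, Ccr7, which directs T cells to lymph nodes, was highest at 283, 284, 268 and 279 CPM per kilobase. Ccr4 was at 99.6 ± 2.11 and S1pr1, which mediates exit from lymph nodes, at 61.9 ± 5.83 CPM per kilobase. Ccr6, the receptor that marks Th17 cells, was at 14.7, 17.8, 16.7 and 17.6 CPM per kilobase. Cxcr3, a receptor of Th1 cells, was at 13.2, 17.6, 14.7 and 21.2 CPM per kilobase, so the 2 ranges overlapped. Homing and adhesion genes were led by Selplg at 173 ± 6.21 CPM per kilobase, and Itgb7 was at 147 ± 11.8 CPM per kilobase.

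All 18 genes of T cell receptor signalling were detected in all 4 libraries, led by Cd2 at 378 ± 5.91 CPM per kilobase. Costimulatory and inhibitory receptors of activated T cells were high: Tnfrsf4 (OX40) was at 270 ± 14.0, Icos at 236 ± 11.6, Ctla4 at 224 ± 12.6 and Tnfrsf18 (GITR) at 149 ± 12.2 CPM per kilobase. Havcr2, which encodes TIM-3, was at 0.863, 1.12, 1.13 and 1.81 CPM, the lowest of the 17 genes in that list.

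Among metabolic classes, glycolysis took the largest share of counts of those with nuclear genes: 1.48%, 1.28%, 1.38% and 1.27%. A share depends on the number and length of the genes in a list. By the median level of its genes glycolysis was not the highest, at 24.5 CPM per kilobase. That median was 32.6 for sterol and fatty acid synthesis, 27.6 for the tricarboxylic acid cycle, 19.5 for the pentose phosphate pathway and 13.3 for fatty acid oxidation. Pgk1, phosphoglycerate kinase, was at 825 ± 76.2 CPM per kilobase, Pkm, pyruvate kinase, at 581 ± 41.3, Aldoa, aldolase, at 557 ± 36.2 and Ldha, lactate dehydrogenase A, at 429 ± 42.9. The order of Pgk1 over Pkm turned round with the longest transcript lengths. Isoenzymes were unequal: Ldha was 24.0 ± 1.04 times as abundant per kilobase as Ldhb, Hk1 1.58 ± 0.157 times as abundant as Hk2, and the glucose transporter gene Slc2a3 1.28 ± 0.0755 times as abundant as Slc2a1. These ratios were above 1 in 4 of 4 libraries. With the longest transcripts the first came to 36.4 and the second to 2.90. Pgk2, a testis isoform, had no count. Of the 28 genes in the list 22 were at 1 CPM or more in all 4 libraries.

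Sterol and fatty acid synthesis took 0.726%, 0.729%, 0.729% and 0.753% of counts. Its highest gene was Scd2, a stearoyl-CoA desaturase, at 394, 413, 398 and 428 CPM per kilobase, 9.60 ± 0.802 times the level of Scd1. Acly, which makes cytosolic acetyl-CoA, was at 93.9 ± 2.62, Fasn, fatty acid synthase, at 73.8 ± 2.89 and Srebf2, the factor that drives sterol genes, at 70.4 ± 1.89 CPM per kilobase. The tricarboxylic acid cycle genes together took 0.294 ± 0.00566% of counts, with all 22 detected in all 4 libraries. Fatty acid oxidation took 0.110 ± 0.00117%, led by Acadl at 129 ± 3.62 CPM per kilobase. The pentose phosphate pathway took 0.0841 ± 0.00264%, led by Tkt at 52.6 ± 3.36 CPM per kilobase.

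In amino acid metabolism, Odc1, the first enzyme of polyamine synthesis, was at 173, 131, 157 and 123 CPM per kilobase and Glud1, glutamate dehydrogenase, at 110 ± 4.89. The glutamine transporter gene Slc1a5 was at 59.3 ± 2.14 and Slc7a5, a leucine transporter, at 41.7 ± 3.72 CPM per kilobase. Among the antioxidant genes, 27 of 31 were at 1 CPM or more in all 4 libraries. Txnip, an inhibitor of thioredoxin and of glucose uptake, was highest at 266 ± 7.68 CPM per kilobase. Txn1, thioredoxin, was at 175 ± 13.0 and Gpx4, which reduces lipid peroxides, at 116 ± 4.40 CPM per kilobase, an order that turned round with the longest transcript lengths.

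Arnt, the dimer partner of the aryl hydrocarbon receptor and of HIF-1α, was at 11.3 ± 0.710 and Tiparp, a target of the aryl hydrocarbon receptor, at 17.1 ± 1.32 CPM per kilobase. Cyp1a1, another target, was at 8.27, 7.38, 7.22 and 6.21 CPM. Cyp1b1 itself was at 0.862 ± 0.0851 CPM per kilobase, below Cyp1a1 at 2.61 ± 0.303, and Cyp1a2 had counts in replicate 4 alone. Over the cytochrome P450 family, 11 of 94 genes were at 1 CPM or more in all 4 libraries. Another 44 (46.8%) had no count, against 23.3% of all protein-coding genes.

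Of 31 cell cycle genes 30 were detected in all 4 libraries. Pcna, the sliding clamp of DNA replication, was at 105 ± 9.45, Ccnd2, cyclin D2, at 104 ± 0.874, Myc at 88.3 ± 3.08 and Top2a, a topoisomerase of dividing cells, at 84.3 ± 4.05 CPM per kilobase. The survival factor Mcl1 was at 199 ± 5.41 and the death effector Bax at 87.9 ± 6.45 CPM per kilobase. Of 101 histone genes 13 were at 1 CPM or more in all 4 libraries. Another 38 (37.6%) had no count, against 23.3% of all protein-coding genes. The highest were variants with polyadenylated transcripts, H2afz at 146 ± 4.67 and H3f3b at 104 ± 7.13 CPM per kilobase. The libraries were made from oligo-dT captured RNA, per the labels, and most replication-dependent histone transcripts carry no poly(A) tail. The part of this in the histone counts was not tested.

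The 13 mitochondrially encoded protein genes took 1.30%, 1.96%, 1.87% and 1.98% of counts, with replicate 1 below the other 3. They were far from equal although most derive from a shared precursor transcript. mt-Co1 stood at 7402 ± 1263, mt-Nd1 at 1499 ± 284 and mt-Cytb at 1455 ± 261 CPM per kilobase. mt-Co2 was at 82.8 ± 6.29, mt-Atp6 at 55.2 ± 34.9 and mt-Co3 at 50.9 ± 19.3 CPM per kilobase. mt-Co2, mt-Atp6 and mt-Co3 each shared a stretch of at least 150 bases at 97% identity or more with 1 other annotated gene, while mt-Nd1 and mt-Cytb shared none. mt-Co1, the highest of all, shared such a stretch with 2 genes. The measure does not give how much of a gene is shared, and the part of the copies in these levels was not tested. How reads of such genes were assigned is not given in the sources used here, so their levels are uncertain.

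**Figure D4:**
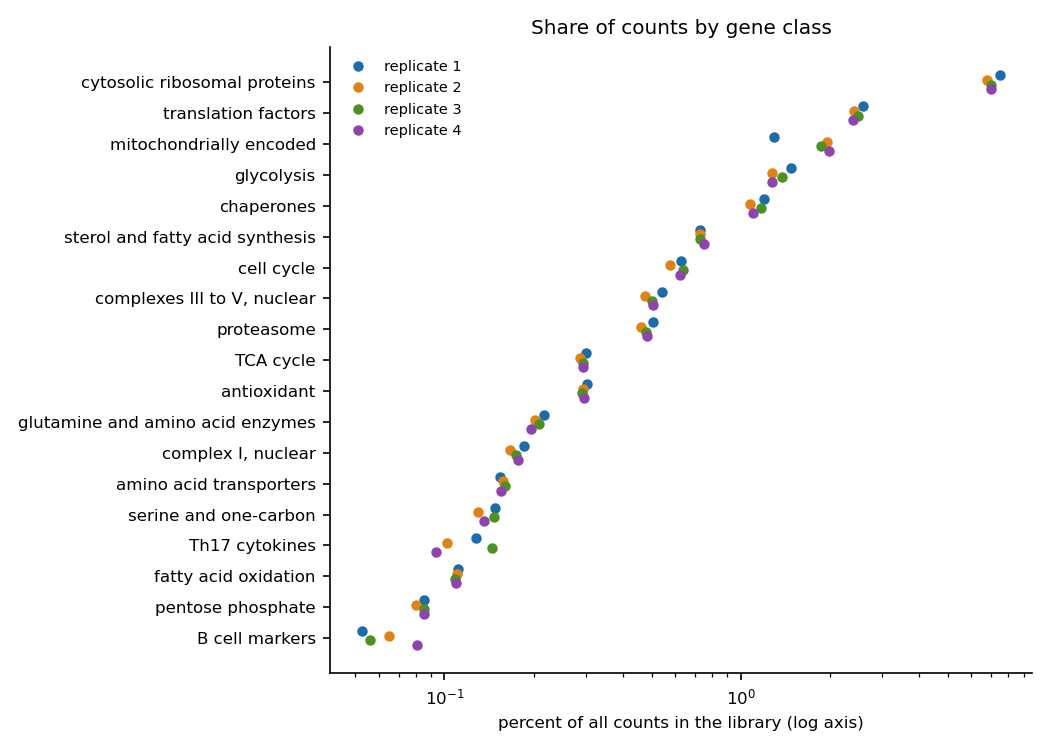
Percent of all counts in each library taken by gene classes (log axis), by replicate. Replicate 1 is at 1.30% for the mitochondrially encoded genes against 1.87% to 1.98% in the others, and at 7.50% for cytosolic ribosomal protein genes against 6.80% to 7.01%.

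Genes with no count were frequent in several gene families known from other tissues. Of 1092 olfactory receptor genes 865 (79.2%) had no count, against 23.3% of all protein-coding genes. The share was 76.2% for 328 vomeronasal receptors, 93.8% for 64 defensins and 63.3% for 49 keratins. Of 24 genes that mark other tissues, such as albumin or insulin, 7 (29.2%) had no count, a share near that of all protein-coding genes, and 22 had a mean under 1 CPM. A few members of silent families were exceptions. Vmn2r97 was at 55.0, 66.9, 59.1 and 54.2 CPM and Vmn2r96 at 11.3, 12.9, 9.91 and 14.7 CPM. The olfactory receptor gene Olfr60 was at 6.62, 7.72, 9.56 and 9.63 CPM. Promoters of the genes with no count held TATAAA in 26.1% of 3807 windows, against 6.61% of 11344 windows of detected genes and 13.6% of all windows. Their GC content was 46.8% against 60.7% for detected genes. The windows covered 3545 of the 5137 genes with no count and 8864 of the 11142 detected genes, some genes with more than 1 window.

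Markers of B cells, class II MHC presentation genes and markers of cytotoxic cells were the most frequently detected of the lists for other cells. All 15 B cell markers were at 1 CPM or more in all 4 libraries, and their summed share was 0.0528%, 0.0651%, 0.0562% and 0.0808% of counts. Replicate 4 held the highest share. Ighm, the IgM heavy chain gene, was at 289, 354, 305 and 457 CPM, and Cd79a at 18.7, 23.3, 22.0 and 31.1 CPM. In these bulk libraries, fewer cells of a type and less RNA per cell cannot be told apart. Class II MHC presentation genes were also detected, all 11 of the list, led by Cd74, the invariant chain, at 121 ± 16.2 CPM per kilobase. Replicate 4, the library with the most B cell marker counts, was the lowest for Il17f, Il17a, Il24, Il21 and Lif, while Il22 was lowest in replicate 2 and Osm highest in replicate 4. The part of the B cell markers in these values was not tested.

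Of 18 dendritic cell and macrophage markers 3 were at 1 CPM or more in all 4 libraries, namely Cd68, Flt3 and Zbtb46, and their summed level ran from 44.0 to 48.0 CPM. The defining genes Lyz2, Csf1r and Adgre1 had means under 1 CPM. Of 14 granulocyte markers 1 passed, Ly6g at 12.4, 10.7, 13.9 and 7.75 CPM. Of 13 markers of cytotoxic cells 9 passed, and their summed share was 0.0262%, 0.0261%, 0.0264% and 0.0360% of counts, highest in replicate 4. The summed level was 262, 261, 264 and 360 CPM. Most of it, and most of its rise in replicate 4, came from the single gene Gzmb. Gzmb, granzyme B, was at 201, 201, 201 and 291 CPM, or 155 ± 31.3 CPM per kilobase, rank 215 among protein-coding genes, while Cd8a was at 2.37, 2.13, 3.40 and 3.21 CPM. Per kilobase, Cd8a stood at 0.764 ± 0.171 and Cd4 at 175 ± 10.3 CPM.

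The spread between the 4 libraries was small for most genes. The common biological coefficient of variation was 7.95% over 13337 genes. For the 8945 protein-coding genes with a mean of 10 CPM or more, the median coefficient of variation of CPM was 6.82%, where counting alone would give a median of 3.94%. It was under 10% for 76.7% of them and over 25% for 42 genes. Between any 2 libraries, from 2 to 7 of 8693 genes at 10 CPM or more differed by more than 2-fold. No pair agreed within sampling noise, with a chi-square per gene of 3.69 to 8.81 where 1 would be counting error alone, so none was a library deposited more than once. The first principal component held 45.6% of the spread and set replicates 1 and 3 on one side and replicates 2 and 4 on the other.

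The cytokine genes of the Th17 list varied more than most. Coefficients of variation were 19.5% for Il17f, 25.6% for Il17a, 25.2% for Il24, 18.2% for Il22 and 15.6% for Il21, against the median of 6.82%. The 12 most variable genes were of another kind. Sumo2 had 33.2, 8.95, 11.3 and 64.3 CPM, and Gapdh, a glycolytic enzyme often taken as a constant reference, had 41.0, 36.4, 41.3 and 161 CPM. Their means of 29.4 and 70.0 CPM came to 17.9 and 39.6 CPM without replicate 4, and that of Ndufa12, a subunit of respiratory complex I, fell from 14.4 to 9.40 CPM. Without that library 5 of the 12 genes were still among the 12 most variable. Rps27a, a ribosomal protein gene, was at 584, 355, 608 and 234 CPM. The others beside Ndufa12 were Mfap1b, mt-Atp6, Snrpe, Rpl21, Srp54b, Ifi203, mt-Co3 and Hspa1b.

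All 12 shared a near-identical stretch with at least 1 other annotated gene, against 26.8% of the 8941 genes compared. The share was 25.7% for genes with a coefficient of variation under 5% and 59.5% for the 42 genes at 25% or more. Gapdh shared such a stretch with 90 genes, 85 of them pseudogenes, and Pgk1, the next enzyme of the pathway, was 93.0, 85.8, 84.7 and 19.9 times as abundant per kilobase in the 4 libraries. How reads were divided between such copies is not stated, so the levels of these 12 genes are uncertain, and the part of the copies in the spread was not tested. The counts of the copies followed no single pattern. The copy of Ndufa12 had 189, 127, 225 and 98 counts where the gene had 116, 71, 168 and 419. The copy of mt-Atp6 had 268, 325, 659 and 1265 counts and was highest in the same library as the gene, which had 198, 272, 496 and 1012. The copy of Snrpe had 79, 101, 64 and 95 counts where the gene had 1165, 181, 883 and 838, and the copy of Ifi203 had 0, 2, 2 and 1 where the gene had 159, 173, 229 and 430. The 5 least variable genes were Ubqln1, Kcmf1, Rtca, Actr3 and Akt2, each with a coefficient of variation under 0.4%. Actr3, a subunit of the Arp2/3 actin nucleator, was at 742, 737, 738 and 737 CPM.

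**Figure D5:**
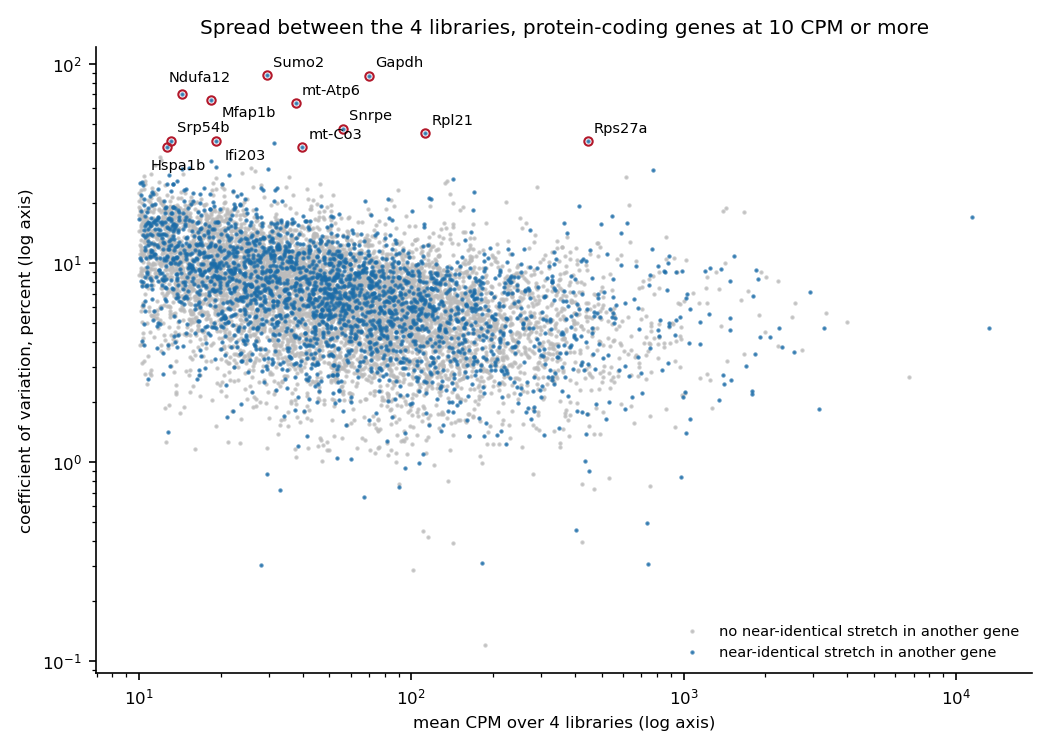
Coefficient of variation of CPM over the 4 libraries (percent, log axis) against mean CPM (log axis) for protein-coding genes at a mean of 10 CPM or more; blue points share a stretch of at least 150 bases at 97% identity or more with another annotated gene, red circles are the 12 most variable named genes. All 12 circled genes are blue.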

How the data were processed

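The deposited values are raw read counts per gene made by the authors, with no normalization. Reads were trimmed with fastp, per the submitters' processing notes, and no source used here names the aligner, counter, strand setting or annotation. Of 54532 gene identifiers 54495 were found in GENCODE M21 (GRCm38), and 53411 of the deposited gene lengths equalled the exon union there, so coordinates are those of GRCm38.

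Only the 4 libraries labelled wild type were used, beside the Cyp1b1 check. Counts were scaled by TMM in edgeR 4.0.16 (R 4.3.3; factors 0.997 to 1.00), with DESeq2 1.42.0 size factors and library totals as alternatives. The dispersion was fitted with an intercept alone after filterByExpr (minimum count 10, total 15). A gene was detected at 1 CPM or more in all 4 libraries. On simulated data for 13609 genes with a set coefficient of 9% the fit recovered 9%. With 200 genes given more spread it gave 11.2% where 10.8% was put in, and 88% of those genes were among the 200 largest coefficients of variation. Near-identical stretches (at least 150 bases, 97% identity) came from BLAST 2.17.0 on annotated transcripts. Orders between genes are descriptions, since an exact sign-flip test over 4 libraries cannot go below 0.125 two-sided.

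Genes were named by rule: the markers, the 25 highest per kilobase and 10 highest in CPM, the 4 highest of each of 61 lists, members of the cytokine, receptor and factor lists, members with no count, and the 12 most and 5 least variable genes. Predicted, clone-named and pseudogene names and receptor segments were left out. Genes outside the rule, among them Ldhb, Hk1, Hk2, Scd1, Trac, Trbc2, the immunoglobulin and the Y-linked genes, were chosen after their values were seen. The members and lists were chosen with earlier results of these data known. Some genes of the lists are not reported here singly, though the counts over lists include them.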

Additional observations from a re-analysis of the deposited data

Results flagged for a closer look

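In 17 of 221 measures examined over the 4 libraries labelled wild type (7.69%), 1 library lay further from the rest than Dixon's limit allows at the 95% level. Chance alone flags about 1 in 20 such groups, and over all 8945 protein-coding genes with a mean of 10 CPM or more 453 (5.06%) passed that limit. The 221 measures include genes named for their large or small spread in these libraries, and classes beside their own members. The 7.69% is therefore not a like comparison with either share.

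Among the flagged measures, replicate 4 was the library apart for 6 of the genes and 3 classes. Over all 453 protein-coding genes past the limit the library apart was most often replicate 1. It was apart for 166 of them, replicate 2 for 119, replicate 3 for 72 and replicate 4 for 96. Gapdh was at 161 CPM there against 36.4 to 41.3 in the others, and Mfap1b, a splicing factor gene, at 36.5 against 11.9 to 13.0. Gzmb stood at 291 CPM against 201 in each of the others. Lower than in the others were Il1r1 at 21.7 against 24.3 to 24.6 CPM, Tiparp at 65.8 against 77.1 to 77.5 CPM and Trac at 275 against 290 to 293 CPM. Sterol and fatty acid synthesis took 0.753% of counts there against 0.726% to 0.729%. Markers of cytotoxic cells took 0.0360% against 0.0261% to 0.0264%, a rise that came mostly from Gzmb. Checkpoint and costimulatory receptors took 0.353% against 0.371% to 0.373%.

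Replicate 1 was apart for mt-Co1, at 8545 CPM against 11989 to 12689, for the mitochondrially encoded class, at 1.30% of counts against 1.87% to 1.98%, and for the Treg factors, at 0.228% against 0.242% to 0.244%. It was also apart for Vars, at 429 CPM against 363 to 374, and for Actr3, at 742 CPM against 737 to 738, although Actr3 was among the least variable genes. In replicate 2, Pcna was at 219 CPM against 261 to 268, and the pentose phosphate genes took 0.0801% of counts against 0.0852% to 0.0855%. In replicate 3, Myc was at 252 CPM against 234 to 237.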

How the results depend on the processing

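Of 114 values recomputed for 15 summary results, 104 stayed within the spread between libraries, or within 1.5 times for a count, and 10 moved further. Apart from the ratio of Il17f to Il17a, which stayed above 1, these results have no direction that could turn. The common biological coefficient of variation of 7.95% came to 7.39% over genes whose mean was 10 CPM or more and ran from 7.40% to 8.53% when each library was left out in turn. The median coefficient of variation of 6.82% then ran from 6.04% to 6.77%. The share of sterol and fatty acid synthesis genes was 0.757% of protein-coding counts and 0.747% of counts without mitochondrially encoded genes, against 0.734% of all counts. The ratio of Il17f to Il17a was 4.68 with the longest annotated transcripts and ran from 2.65 to 2.81 with a library left out. Of the 12 most variable genes, from 5 to 11 were still among the 12 when a library was left out, the 5 being without replicate 4, and 2 were when genes at a mean of 1 CPM or more were ranked. The gene length mattered most for single genes: among 251 genes the longest transcript moved 135 levels by more than their spread, while DESeq2 size factors and library totals moved none, and 21 of the 25 highest genes per kilobase stayed in that set. Transcripts near 0.3 CPM or below cannot be told from absent in a single library. No paired analysis was possible because the libraries form 1 group with no comparison.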

Other observations

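The machinery that makes, loads and degrades proteins was detected nearly throughout in the 4 libraries labelled wild type. Of all protein-coding genes, 50.5% were at 1 CPM or more in every library. All 35 aminoacyl-tRNA synthetase genes were at 1 CPM or more in every library, led per kilobase by Gars, which charges glycine tRNA, at 69.0 ± 3.31 and Vars, which charges valine tRNA, at 68.4 ± 5.48 CPM per kilobase, an order that turned round with the longest transcript lengths. Of 49 proteasome genes 47 passed the same limit, with Psma6, a subunit of the core particle, at 114, 103, 110 and 106 CPM per kilobase. Of 78 mitochondrial ribosomal protein genes 77 passed, and of 37 genes of respiratory complex I 36 did, with Ndufb11, an accessory subunit, at 111, 90.6, 103 and 94.9 CPM per kilobase. Among complexes III to V, 40 of 45 genes passed. Of its members Cox8b and Cox8c had no count, and Cox8a, the widely expressed form of that cytochrome c oxidase subunit, was at 258, 245, 274 and 259 CPM per kilobase.

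Transcripts of the T cell receptor constant regions were abundant in all 4 libraries. Trac, of the α chain, was at 291, 293, 290 and 275 CPM, and Trbc2, of the β chain, at 399, 362, 337 and 377 CPM.

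Counts were present for the constant region genes of IgG2b and IgG3. Ighg2b was at 18.0, 30.3, 24.7 and 42.2 CPM and Ighg3 at 4.46, 6.71, 5.38 and 14.3 CPM. Replicate 4 was the highest of the 4 for both genes, as it was for the summed B cell markers.

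The sex of the animals is not given in the labels. The Y-linked genes Eif2s3y and Ddx3y were at 148 ± 8.25 and 126 ± 5.67 CPM, and Xist, the RNA that coats the inactive X chromosome, had 3, 0, 2 and 3 counts in the 4 libraries.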
